A study of Drosophila melanogaster with 8 samples.

Results

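Nitric oxide synthase, the proteins that respond to cGMP and the phosphodiesterases that break it down form the upstream and downstream parts of the pathway in which soluble guanylyl cyclase works. The genes were chosen by name: every spot whose gene symbol was Nos, CG4839, CngB, Pde1c, Pde6 or Pde11 was taken. All 6 genes had spots, 14 in all, out of 6793 named genes on the array. RNA from Drosophila melanogaster larvae in the third instar was compared on 8 spotted arrays read in 2 colours, each array setting larvae with the mutant allele DGCalpha1[3] against larvae without it in the same background. The allele lies in Gycalpha99B, the gene of the cyclase's alpha subunit. Rover arrays (n = 4) paired Rover larvae with DGCalpha1[3] Rover larvae, and sitter arrays (n = 4) paired sitter larvae with DGCalpha1[3] sitter larvae. All larvae were untreated. Rover and sitter are natural foraging types. The labels used here do not say how many larvae or extracts were used, or their sex, so p-values measure only the spread between arrays, which may be technical.

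In this pathway nitric oxide synthase makes nitric oxide from arginine, and the gas switches on soluble guanylyl cyclase. The cGMP so formed acts on cGMP-dependent protein kinases and on cyclic nucleotide-gated channels, and phosphodiesterases end the signal by hydrolysing it. In Drosophila the pathway is known from larval foraging, where the gene foraging encodes a cGMP-dependent kinase, from vision and the development of the nervous system, and from fluid secretion by the Malpighian tubules. The labels name larvae and no tissue, so fewer cells of a type and less RNA per cell cannot be told apart. The values are ratios within an array and carry no level, so the abundance of these transcripts is unknown and tissue markers could be compared only as ratios.

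Each value is the deposited ratio of the array's channels, taken as a log2 ratio, with base 2 an assumption. The labels do not say which channel is in the numerator, and the dyes are not assigned to the channels. Ratios are therefore called positive or negative, and not higher or lower in the mutant. Most genes had a negative ratio as deposited, with array medians over all features between -0.26 and -0.50 in Rover and between -0.11 and -0.31 in sitter. Values are for this reason given as deposited and also centred, which means after subtraction of the array's median. The percentile of a gene among the 6793 genes of an array, which does not depend on centring or on the log base, is given beside them. A gene was called when its limma p-value, adjusted by Benjamini-Hochberg over all 19325 features, was under 0.05.

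As deposited, 2 of the 6 genes were called negative in Rover, Pde1c and Pde6, where 44.7% of all named genes were called negative. None of the 6 was called in sitter by limma, where 21.1% of named genes were called in either direction. Of the 6, 1 (Pde1c) had an unadjusted p under 0.05 there, as had 7335 of all 19325 features. The sitter calls depended on single arrays: of 19325 features 4583 were called, but only 24 without sitter replicate 2 and 22 without sitter replicate 3. Over both backgrounds 3 were called negative, the phosphodiesterases Pde1c, Pde6 and Pde11, against 44.9% of named genes. The median ratio of the 6 genes was -0.46 in Rover and -0.19 in sitter, against -0.34 and -0.15 over all named genes. The share of called genes among the 6 was thus below or near that of the whole array in each of these comparisons.

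Centring changed the balance of the whole array. As deposited 3036 named genes were called negative and 117 positive in Rover, and centred 1442 were negative and 1709 positive. In sitter 1371 and 64 became 585 and 213, and over both backgrounds 3048 and 160 became 1839 and 1966. After centring a different pair of the 6 genes was called in Rover. Pde1c was again called negative, with 21.2% of named genes called negative, and CG4839 was called positive, with 25.2% called positive. In sitter limma called none of the 6, with 11.7% of named genes called. Of the 6, 1 (CngB) had an unadjusted p under 0.05 there, as had 7456 of all 19325 features. Over both backgrounds Pde1c was called negative (27.1% of named genes) and CG4839 and CngB were called positive (28.9%). Pde6 and Pde11 were no longer called. Of the 6 genes, Pde1c alone was called in Rover and over both backgrounds both as deposited and centred. When the centred arrays were also scaled to an equal spread, its Rover value of -0.65 missed the threshold (adjusted p = 0.0816), and the mean over both backgrounds was -0.49 (adjusted p = 0.0480).

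**Figure D1:**
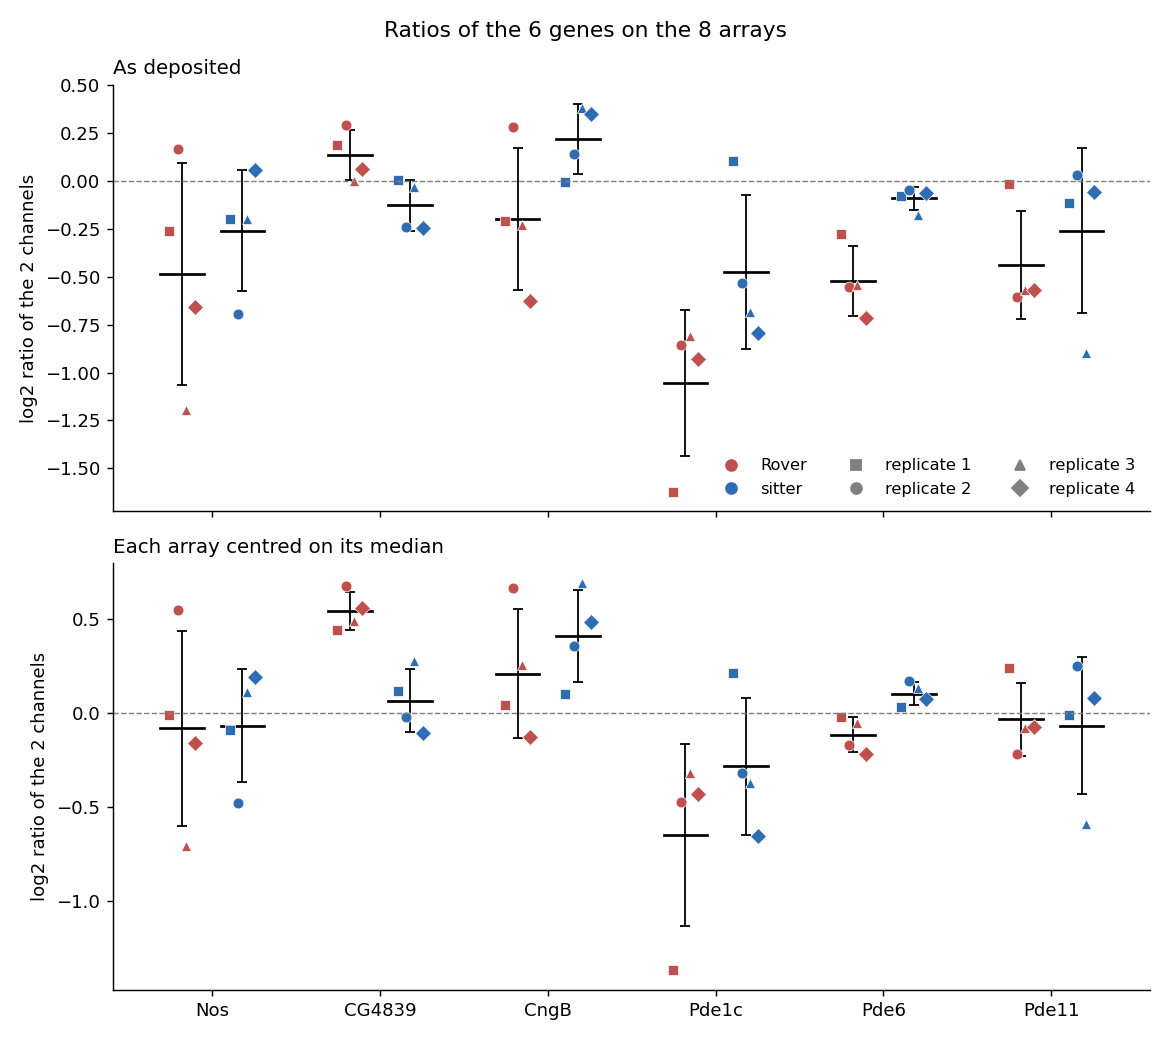
Log2 ratio of the channels (vertical axis) for the 6 genes on each of 8 arrays, as deposited above and centred on each array's median below; red points are Rover arrays and blue points sitter arrays, with a marker shape for each replicate number, and black bars give the mean and SD of 4 arrays. Each point is the mean of a gene's spots on the array. Pde1c is lowest in Rover, where Rover 1 stands at -1.62 as deposited, and the Pde6 points of the backgrounds do not overlap in either panel.

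Nos encodes the single nitric oxide synthase of the fly. Its ratios as deposited were -0.26, 0.16, -1.20 and -0.66 on Rover 1 to 4, and -0.20, -0.70, -0.20 and 0.05 on sitter 1 to 4. The arrays of both backgrounds thus included positive and negative values and overlapped widely. The mean was -0.49 ± 0.58 (SD, n = 4; limma adjusted p = 0.0851) in Rover and -0.26 ± 0.31 (SD, n = 4; adjusted p = 0.419) in sitter. After centring the means were -0.08 and -0.06 (adjusted p of 0.734 and 0.813). Without Rover replicate 2 the Rover mean as deposited was called, at -0.71 (adjusted p = 0.0312). The spread of Nos between arrays was at the 84.0 percentile of all named genes.

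The 4 Nos spots fell into a pair of neighbouring duplicates at each of 2 places on the array, and the pairs disagreed. The first pair stayed near 0 as deposited, with single spots between -0.23 and 0.25 over all 8 arrays. Its mean was 0.01 in Rover and 0.08 in sitter (limma adjusted p of 0.945 and 0.639). The second pair was mostly negative, with spots from -2.68 on Rover 3 to 0.20 on sitter 4, apart from 1 spot at 1.51 on Rover 2. Its mean was -0.99 ± 0.35 (SE; adjusted p = 0.0453) in Rover and -0.60 ± 0.35 (SE; adjusted p = 0.260) in sitter. On Rover 2 the duplicates of the second pair were at -1.11 and 1.51, a gap of 2.63 that made the gene's mean on this array positive.

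After centring, the first Nos pair was called positive in Rover at 0.42 ± 0.10 (SE; limma adjusted p = 0.0125) and over both backgrounds at 0.34 (adjusted p = 0.00404). The second pair was then at -0.58 in Rover (adjusted p = 0.159) and -0.49 over both (adjusted p = 0.0906). The duplicates of the first pair differed by a median of 0.15 over the arrays, and those of the second by 0.51. Over 7558 duplicate pairs of named genes the median was 0.19, and 97.9% of them had a smaller gap than the second Nos pair. The labels do not say which part of the transcript each pair detects. The averaged Nos ratio therefore combines spots that gave different answers.

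**Figure D2:**
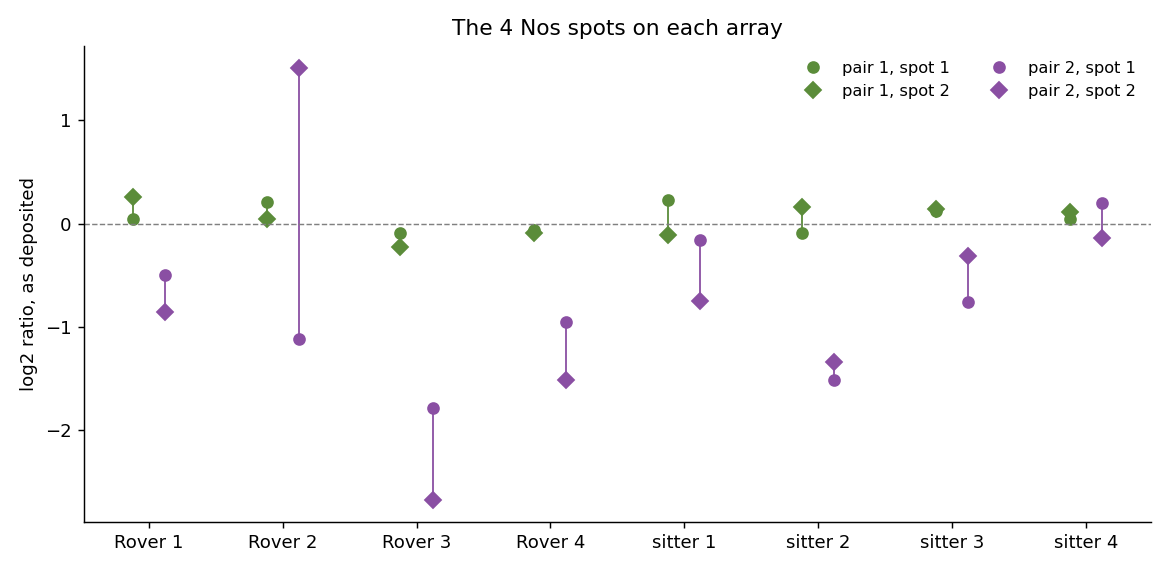
Log2 ratio as deposited (vertical axis) of the 4 Nos spots on each of 8 arrays (horizontal axis); green points are the first pair of duplicate spots and purple points the second, and a line joins the duplicates of a pair. The green pair stays between -0.23 and 0.25, and the purple pair runs from -2.68 to 1.51.

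Of the effectors, CG4839 encodes a kinase related in sequence to the cGMP-dependent protein kinases. Its ratios as deposited were 0.19, 0.29, 0.0004 and 0.06 on Rover 1 to 4, and 0.01, -0.24, -0.03 and -0.25 on sitter 1 to 4. It was positive on all Rover arrays, though 1 of them was at 0, and negative on 3 of 4 sitter arrays. These are means of duplicate spots, which had the same sign on only 4 of 8 arrays. The first spot was at -0.08 on Rover 3 and -0.07 on Rover 4. The Rover mean was 0.13 ± 0.13 (SD, n = 4; limma adjusted p = 0.321) and the sitter mean -0.13 ± 0.13 (SD, n = 4; adjusted p = 0.413). CG4839 was the least variable of the 6 genes, its spread between arrays being at the 8.6 percentile of named genes.

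Because most genes were negative in Rover, a ratio near 0 placed CG4839 high among them, at the 78.4 to 91.9 percentile of each Rover array. In sitter it lay at the 32.5 to 68.8 percentile. Centred, its mean was 0.54 ± 0.10 (SD, n = 4; limma adjusted p = 0.00805) in Rover and 0.07 ± 0.17 (SD, n = 4; adjusted p = 0.650) in sitter. The centred Rover value was called in all 8 fits that omitted 1 array (adjusted p from 0.0112 to 0.0353). Fits that omitted a sitter array kept the Rover ratio and could change only the shared spread and the adjustment. The centred arrays of the backgrounds did not overlap, with Rover above sitter, as was the case for 7.08% of named genes.

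CngB encodes a subunit of a cyclic nucleotide-gated channel, which passes cations when cGMP or cAMP binds. Its ratios as deposited were -0.21, 0.28, -0.23 and -0.63 on Rover 1 to 4. On sitter 1 to 4 they were -0.01, 0.14, 0.38 and 0.35. Rover arrays were mostly negative and sitter arrays mostly positive, and the values of the backgrounds overlapped. The mean was -0.20 ± 0.37 (SD, n = 4; limma adjusted p = 0.315) in Rover and 0.22 ± 0.18 (SD, n = 4; adjusted p = 0.333) in sitter.

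Among the genes of each sitter array CngB lay high, at the 63.4, 86.3, 96.3 and 94.9 percentile on sitter 1 to 4. On the Rover arrays it ran from the 41.0 to the 91.4 percentile. After centring the sitter mean was 0.41 ± 0.25 (SD, n = 4; limma adjusted p = 0.0819) and the Rover mean 0.21 ± 0.34 (SD, n = 4; adjusted p = 0.252). Their mean, 0.31 ± 0.11 (SE), was called (adjusted p = 0.0293), but not without Rover replicate 2 (0.23) or 3 (0.30), nor without sitter replicate 2 (0.32), 3 (0.26) or 4 (0.30), with adjusted p between 0.0532 and 0.0815. The positive call of CngB thus held in 3 of 8 such fits. When the centred arrays were also scaled to an equal spread, its sitter mean was 0.49 and was called (limma adjusted p = 0.0245).

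**Figure D3:**
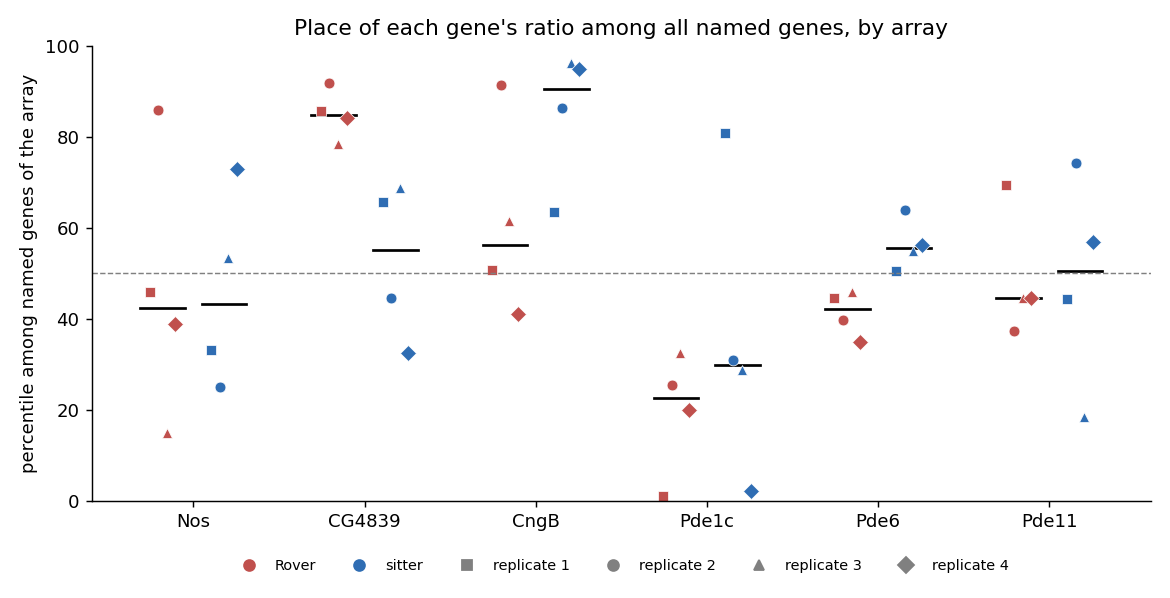
Percentile of each gene's ratio among the 6793 named genes of the same array (vertical axis) for the 6 genes; red points are Rover arrays, blue points sitter arrays, marker shapes give the replicate number and black lines the median of 4 arrays. CG4839 lies between 78.4 and 91.9 in Rover, and Pde1c lies at 32.5 or below on all Rover arrays and at 80.8 on sitter 1.

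The 3 phosphodiesterases of the set had negative means in both backgrounds as deposited. Pde1c, Pde6 and Pde11 were negative on all 4 Rover arrays, which was true of 50.3% of named genes. Pde6 was negative on all 8 arrays, as were 31.3% of named genes. After centring Pde1c and Pde6 were negative on all Rover arrays, against 28.1% of named genes.

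Pde1c encodes a phosphodiesterase that calcium and calmodulin stimulate and that hydrolyses both cAMP and cGMP. Its ratios as deposited were -1.62, -0.86, -0.81 and -0.93 on Rover 1 to 4, and 0.10, -0.53, -0.68 and -0.79 on sitter 1 to 4. All Rover arrays lay below all sitter arrays. The mean was -1.05 ± 0.38 (SD, n = 4; limma adjusted p = 0.00289) in Rover and -0.48 ± 0.40 (SD, n = 4; adjusted p = 0.0855) in sitter. Over both backgrounds it was -0.77 ± 0.13 (SE; adjusted p = 0.00128), negative on 7 of 8 arrays. The Rover call and that over both backgrounds were each made in all 8 fits that omitted 1 array. For the Rover mean, omitting a sitter array kept the ratio and could change only the shared spread and the adjustment. The sitter mean was called without sitter replicate 1, at -0.67 (adjusted p = 0.0324).

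Centred, Pde1c was at -0.65 ± 0.48 (SD, n = 4; limma adjusted p = 0.0240) in Rover and -0.28 ± 0.36 (SD, n = 4; adjusted p = 0.292) in sitter. The centred Rover value missed the threshold without Rover replicate 1 (-0.41, adjusted p = 0.0683) and without Rover replicate 2 (-0.71, adjusted p = 0.0551). The centred mean over both backgrounds was -0.46 ± 0.14 (SE; adjusted p = 0.0161) and was called in all 8 fits without 1 array. Pde1c stood at the 1.1 percentile on Rover 1 and at the 2.1 percentile on sitter 4, between the 19.9 and 32.5 percentile on the other arrays but sitter 1, and at the 80.8 percentile there. Its duplicate spots on Rover 1 were at -2.25 and -0.996, the largest gap of this gene. On Rover 3 they also lay far apart, at -0.22 and -1.40. On all 8 arrays the duplicates had the same sign, but their median gap was 0.36, and 88.1% of duplicate pairs of named genes had a smaller one.

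The extremes of Pde1c as deposited, Rover 1 and sitter 1, were the arrays of print lot A, which were hybridised for 15.75 hours, the others being of lot B and hybridised for 17.75 hours. Within lot B the mean was -0.87 in Rover (limma adjusted p = 0.00309) and -0.67 in sitter (adjusted p = 0.0160), so both backgrounds were called. On the arrays scanned at the lower Cy5 detector gain the means were -0.87 and -0.61 (adjusted p of 0.00266 and 0.0233). These were the lot B arrays without sitter 4. The Rover arrays were therefore the same, sitter kept only sitter 2 and sitter 3, and this is no separate check. The labels spell the lot of Rover 1 and sitter 1 differently, with the same final number, and taking it as 1 lot is an assumption. Lot A holds 1 array of each background and allows no test of its own.

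Pde6 encodes a cGMP-specific phosphodiesterase. Its ratios as deposited were -0.28, -0.55, -0.54 and -0.72 on Rover 1 to 4. On sitter 1 to 4 they were -0.08, -0.05, -0.18 and -0.07. Every Rover value lay below every sitter value, and the sitter values stayed close to 0. These are means of duplicate spots. On Rover 1 the duplicates were at -0.58 and 0.02, a gap of 0.60, and the second lay above every sitter value of that spot. The median gap over the arrays was 0.14, and 32.5% of duplicate pairs of named genes had a smaller one. The mean was -0.52 ± 0.18 (SD, n = 4; limma adjusted p = 0.00416) in Rover and -0.09 ± 0.06 (SD, n = 4; adjusted p = 0.582) in sitter. It was called in Rover in all 8 fits that omitted 1 array (adjusted p from 0.00366 to 0.0198). Those that omitted a sitter array kept the Rover ratio and could change only the shared spread and the adjustment.

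The Rover ratio of Pde6 was close to that of most genes on those arrays, at the 34.8 to 45.8 percentile. In sitter it stood at the 50.6 to 63.9 percentile. Centred, the Rover mean was -0.11 ± 0.09 (SD, n = 4; limma adjusted p = 0.332) and the sitter mean 0.10 ± 0.06 (SD, n = 4; adjusted p = 0.436). Centring therefore ended the call and turned the sign in sitter. As deposited the spot means of Pde1c and Pde6, 2 of the 6 genes, lay entirely lower on Rover arrays than on sitter arrays, against 6.23% of named genes. Centred this was true of Pde6 alone, against 1.91%.

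Pde11 encodes a phosphodiesterase of dual specificity for cAMP and cGMP. Its ratios as deposited were -0.02, -0.61, -0.57 and -0.57 on Rover 1 to 4, and -0.12, 0.03, -0.90 and -0.06 on sitter 1 to 4. In each background 1 array stood apart, Rover 1 near 0 and sitter 3 far below it. The mean was -0.44 ± 0.28 (SD, n = 4; limma adjusted p = 0.0628) in Rover and -0.26 ± 0.43 (SD, n = 4; adjusted p = 0.314) in sitter. The mean over both, -0.35 ± 0.12 (SE), was called (adjusted p = 0.0382), but in only 3 of the 8 fits without 1 array. Without Rover replicate 2, 3 or 4 it was -0.32, -0.33 and -0.33, and without sitter replicate 1 or 3 it was -0.37 and -0.24, with adjusted p of 0.0552 to 0.0901. The Rover mean by itself was called without Rover replicate 1 (-0.58, adjusted p = 0.0308). It was also called without sitter replicate 3 (adjusted p = 0.0236), where the Rover ratio is unchanged and only the shared spread and the adjustment differ. After centring the mean over both was -0.05 (adjusted p = 0.696). The duplicate spots of Pde11 had the same sign on only 4 of 8 arrays. Their median gap was 0.30, and 80.2% of duplicate pairs of named genes had a smaller one.

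The difference between the backgrounds was tested directly as the Rover mean minus the sitter mean. By limma none of the 6 genes passed, as deposited or centred, and 4 of all named genes (0.0589%) passed as deposited and 6 (0.0883%) centred. On each scale 1 of the 6 had an unadjusted p under 0.05, Pde6 as deposited and CG4839 centred. So did 1816 of all 19325 features as deposited and 1766 centred. As deposited the differences ran from -0.58 for Pde1c to 0.26 for CG4839, and the median of the 6 was -0.32 against -0.17 for all named genes. Centred they ran from -0.365 to 0.48 with a median of -0.11, against 0.04.

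Pde6 differed by -0.43 as deposited (95% interval -0.76 to -0.10; limma adjusted p = 0.439) and by -0.22 centred (95% interval -0.52 to 0.09; adjusted p = 0.658). Within print lot B its difference as deposited was -0.51 (adjusted p = 0.412). At the lower Cy5 gain, which is lot B without sitter 4, it was -0.49. CG4839 differed by 0.26 as deposited (95% interval -0.06 to 0.59; adjusted p = 0.590) and by 0.48 centred (95% interval 0.14 to 0.81; limma adjusted p = 0.412). For Pde1c the difference of -0.58 (95% interval -1.16 to 0.00; adjusted p = 0.536) was reduced to -0.19 within print lot B (adjusted p = 0.678) and to -0.26 at the lower Cy5 gain.

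CngB differed by -0.41 (95% interval -0.88 to 0.06; limma adjusted p = 0.567) as deposited and by -0.20 centred. Nos differed by -0.23 (95% interval -0.90 to 0.44) and Pde11 by -0.18 (95% interval -0.73 to 0.37), with adjusted p of 0.799 and 0.811. The intervals are wide, so they do not show that the backgrounds responded alike.

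Tissue markers were compared in the same way, as the mean centred ratio of a list on each array. The 3 measured of 6 fat body storage genes, whose transcripts build up late in larval life, ran from 0.01 to 2.62 on the Rover arrays and from -2.73 to -0.04 on the sitter arrays, without overlap. As deposited they ran from -0.24 to 2.13 and from -2.87 to -0.15, with overlap. The 3 measured of 7 midgut markers, centred, lay between 0.16 and 0.50 on the Rover arrays and between -0.06 and 0.15 on the sitter arrays, also without overlap. The midgut genes did not agree in direction. Their centred Rover minus sitter difference was 0.47 for Jon65Ai and 0.60 for Jon99Fii, but -0.30 for Mal-A2. Among single named genes, 7.08% had all centred Rover values above all sitter values. In the difference between the backgrounds limma called 0 of the 3 genes of either list, as deposited or centred. At an unadjusted p under 0.05 the fat body list had 2 as deposited and 3 centred, the midgut list 1 and 2. Of all 19325 features 1816 had such a p as deposited and 1766 centred. The centred ranges of the other lists overlapped. The 3 measured of 9 salivary glue and late puff genes lay between -1.42 and 1.53 in Rover, and between -2.08 and 0.23 in sitter. Their mean combined genes that went opposite ways, with a centred difference of -1.65 for Sgs4 and 3.63 for Eig71Ee. By limma 0 of the 3 were called in the difference on either scale. On each scale 2 had an unadjusted p under 0.05, beside the same 1816 and 1766 of all features. The 4 measured of 7 testis markers ran from -1.01 to 0.07 and from -0.48 to 0.23, and the 3 measured of 9 nervous system markers from -0.38 to -0.22 and from -0.41 to 0.01. The 5 measured of 6 Malpighian tubule markers ran from -0.25 to 0.14 and from -0.25 to 0.01. The part of these genes in the differences of CG4839 and Pde6 was not tested.

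Along the arrays the 6 genes had no common course. The 15 pairs among them had Pearson r between -0.83 and 0.46 over the 8 centred arrays, which share print effects and, within a background, perhaps extracts. The lowest r, -0.83, was between CG4839 and Pde6, and the highest, 0.46, between Nos and CngB. The background means were not removed, so a difference between the backgrounds enters each r. The centred means in Rover and sitter were 0.54 and 0.07 for CG4839, and -0.11 and 0.10 for Pde6. Genes of the array most like each member were taken by the same r over 8 arrays. For Nos these were uzip (0.96), Kaz-m1 (0.94) and CG13907 (0.93). For CG4839 they were Su(dx) (0.99), CG12054 (0.99) and pot (0.98), and for CngB they were CG6321 (0.98), CG9400 (0.97) and CG33158 (0.95). For Pde1c they were CG3534 (0.90), Cdk8 (0.88) and CG15543 (0.87). For Pde6 they were CG5707 (0.94), CG18766 (0.94) and CG3251 (0.93), and for Pde11 they were CG8379 (0.93), CG32488 (0.92) and CG11475 (0.91). As many as 438 genes reached an r above 0.8 with CG4839, and 17 did so with Pde1c, the fewest of the 6.

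The wider cGMP and cAMP pathways were described from 5 lists of 53 genes, the 6 included, of which 29 were measured. In Rover 15 of the 29 were called negative by limma, 1 positive and 13 not, with a median ratio of -0.49 against -0.34 for all named genes, of which 44.7% were called negative. In sitter 6 were called negative, 0 positive and 23 not, with a median of -0.26 against -0.15, where 21.1% of named genes were called in either direction. Centred, 7 were negative and 3 positive in Rover, against 21.2% and 25.2% of named genes, and 3 were negative and 0 positive in sitter, against 11.7% in either direction. In the difference limma called none of the 29 on either scale, and 4 had an unadjusted p under 0.05 as deposited and 3 centred. Of all 19325 features 1816 had one as deposited and 1766 centred.

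Of the cGMP effectors, Pkg21D, a second gene for a cGMP-dependent protein kinase, was at -0.35 in Rover and -0.19 in sitter as deposited (limma adjusted p of 0.114 and 0.475), and centred at 0.055 and 0.010, so its sign turned. Of the phosphodiesterases, Pde8, whose relatives in mammals hydrolyse cAMP, was at -0.22 and 0.06 (adjusted p of 0.223 and 0.793). Centred it was at 0.19 and 0.26, so Pde8 and Pde1c stood on opposite sides of 0 there. No spot carried the name of for, CngA, Cngl, Pde9 or dnc, and these genes are not analysed here.

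Nitric oxide synthase needs the cofactor tetrahydrobiopterin, and 5 genes of its synthesis and recycling were measured. Dhpr, for dihydropteridine reductase, was called negative in Rover at -0.93 (limma adjusted p = 0.0078) and was at -0.55 in sitter (0.0954). Centred it was not called in Rover, at -0.52 (adjusted p = 0.0560), and was called over both backgrounds at -0.43 (adjusted p = 0.0249). Pcd, for a pterin dehydratase, was at -0.74 in Rover (adjusted p = 0.0314), and Sptr, for sepiapterin reductase, at -0.44 (0.0106). Neither was called centred, at -0.34 and -0.03 in Rover. Pu, for GTP cyclohydrolase, and pr, for pyruvoyltetrahydropterin synthase, were at -0.49 and -0.33 in Rover and were not called. In sitter none of the 5 passed by limma, and Dhpr had an unadjusted p of 0.0321. With Nos included, 3 of 6 genes were called negative in Rover as deposited, where 44.7% of named genes were. Over both backgrounds centred, 1 of the 6 was called negative, against 27.1%.

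Of 12 listed guanylyl cyclases 7 were measured, and 5 of them were called negative over both backgrounds, as deposited and also centred, against 44.9% and 27.1% of named genes. These were CG10738 and CG3216, of the receptor type, at -1.05 and -0.57 centred, and Gyc88E, Gyc89Da and Gyc89Db, of the atypical soluble type, at -0.73, -0.52 and -0.71. CG31183 was called negative in Rover as deposited at -0.43 (limma adjusted p = 0.0266). The mutated gene Gycalpha99B was at -0.67, -0.96, 0.14 and 0.45 on Rover 1 to 4 as deposited, and at 0.18, -0.52, -0.32 and -0.40 on sitter 1 to 4. The Rover arrays thus split in sign, with 2 negative and 2 positive. The means of -0.26 in Rover and -0.27 in sitter were not called (limma adjusted p of 0.396 and 0.451), and centred they were 0.15 and -0.07, also not called.

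In the cAMP pathway, 9 of 20 listed genes were measured. The adenylyl cyclase genes Ac78C and ACXD were called negative over both backgrounds on either scale, at -0.39 and -0.51 centred (limma adjusted p of 0.00687 and 0.00466). Ac76E, another adenylyl cyclase gene, was called positive in Rover, at 0.48 as deposited and 0.89 centred. Pka-C3, for a kinase related to the catalytic subunit of protein kinase A, was at -0.66 as deposited and -0.36 centred over both backgrounds, called on either scale. Ac13E was called negative as deposited only, at -0.39 over both. Pka-R1, for a regulatory subunit, was called positive centred, at 0.38, as were rg, for an anchoring protein of the kinase, at 0.25, and Pka-C2 at 0.23. Over both backgrounds 4 of the 9 were called negative as deposited, against 44.9% of named genes. Centred, 3 were negative and 4 positive, against 27.1% and 28.9%. In Rover centred 2 of the 9 were positive, against 25.2%, and as deposited 1 was, against 117 of 6793 named genes.

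**Figure D4:**
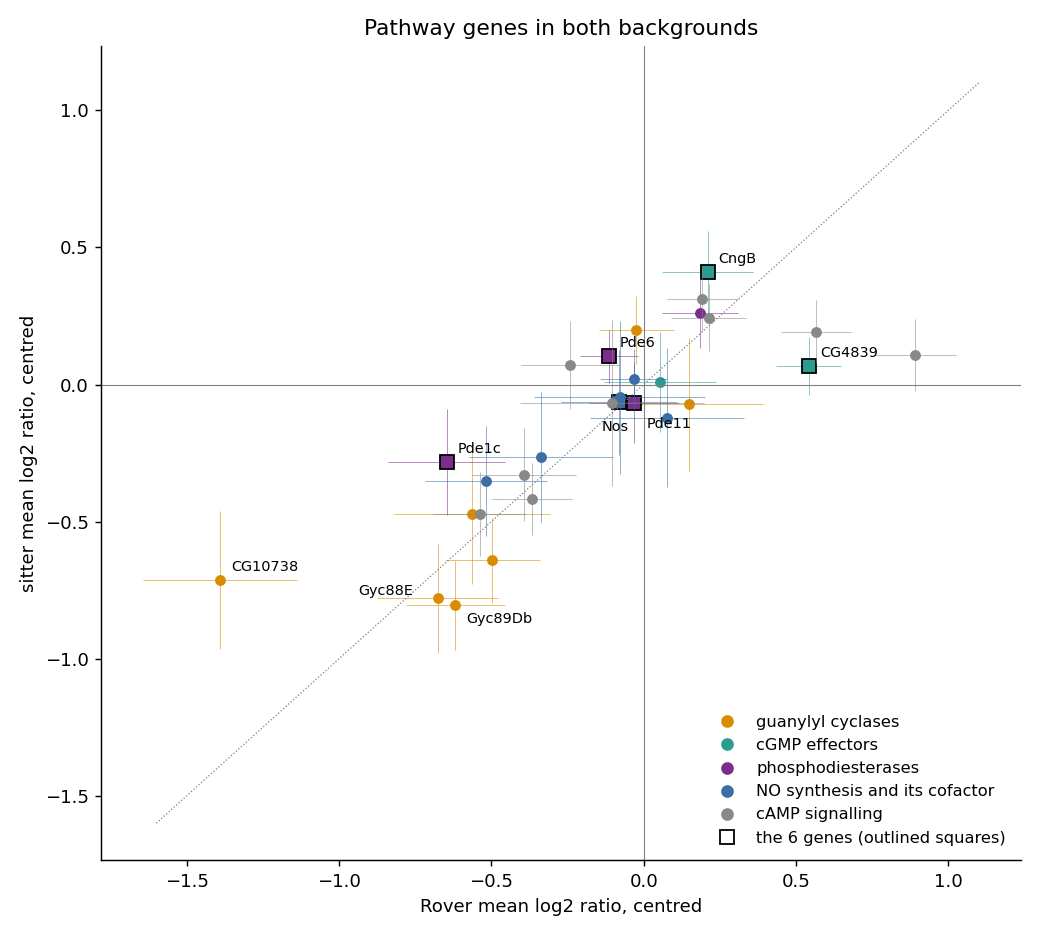
Mean centred log2 ratio in Rover (horizontal axis) and in sitter (vertical axis) of the 29 measured genes of the cGMP and cAMP lists, n = 4 arrays each, with standard errors from limma; colours mark the lists, outlined squares the 6 genes, and the dotted line equal ratios. Pde1c lies at -0.65 and -0.28, CG4839 at 0.54 and 0.07, and the guanylyl cyclase gene CG10738 is lowest in Rover at -1.39.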

How the data were processed

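Ratios were measured on 8 arrays, 4 Rover and 4 sitter, each with 80 µg of RNA per labelling, per the labels. The slides were scanned and quantified without background subtraction, per the labels. The authors deposited 1 ratio per spot and array, derived from normalised data per the labels, whose normalisation method was not given in the sources used here. Values were taken as deposited log2 ratios, since they run below 0. The table held 27648 spots with 0 missing values. A probe table from GEO's platform annotation named 1 gene for 15116 spots and several for 102, and 12430 were not listed. Spots of a gene were averaged per array, and all other spots were kept, which gave 19325 features. limma 3.58.1 in R 4.3.3 fitted a mean per background over all 8 arrays, with 6 residual degrees of freedom. The fit was tested on simulated data. Array intensities were not used here, so signal over background is unknown, and the number of arrays limits the precision.

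The members and lists were chosen with earlier results of these data known. The text names all 6 genes, each list gene called in any comparison, the other phosphodiesterase, effector and nitric oxide synthesis genes measured, and the 3 genes most like each of the 6. The alternatives were centring, centring with scaling, robust moderation, array weights, blocking on print lot or on replicate number, separate fits for the backgrounds, named genes only, print lot B alone, the lower Cy5 gain, single spots and leaving out each array. Fits without 1 array after centring, the Nos pairs as separate features and the replicate number with centring were added after seeing the data. Same-numbered arrays of the backgrounds deviated from their group means with r of 0.31, 0.12, 0.06 and 0.06, so numbers were not taken as pairs. Genes called here are those with an adjusted p under 0.05. The Release 6 gene table was used for names only.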

Additional observations from a re-analysis of the deposited data

Results flagged for a closer look

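Within the groups of 4 arrays, 1 array of a gene stood far from the other 3 by Dixon's test in 4 of 24 cases tested (6 genes, 2 backgrounds, as deposited and centred). Chance alone gives about 1 in 20 for a single case. The as deposited and centred cases of a gene use the same arrays and are not independent, and the count was not tested against chance. Pde11 was at -0.0153 on Rover 1, above the remaining Rover values. On sitter 3 Pde11 was at -0.90, below the remaining sitter values. Both hold as deposited, and neither array stood apart in this way after centring. Pde1c on Rover 1 was at -1.62 as deposited and at -1.37 centred, below the remaining Rover values on both scales. After centring the spot mean of Pde6 was negative on every Rover array and positive on every sitter array. The difference of -0.22 did not pass limma's test (adjusted p = 0.658).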

How the results depend on the processing

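The precision is limited by 4 arrays per background, the labels do not say whether dyes were swapped, signal over background is unknown, and the true centre of the ratios is unknown. Under settings that kept all arrays or took 1 print lot or detector gain, 207 values of the 6 genes kept their direction and their side of the threshold, 14 changed sign, 12 came to pass the threshold and 7 no longer passed it. With 1 array left out, 174 were kept, 8 changed sign, 5 came to pass and 5 no longer passed. With centring and 1 array left out, 169 were kept, 16 changed sign and 7 no longer passed. In both of these counts, leaving out an array of 1 background could not change the mean ratio of the other. The cause of these changes was not tested.

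On named genes alone, which are fewer, 3310 were called in Rover, 1596 in sitter, 3325 over both backgrounds and 21 in the difference, against 9019, 4583, 9436 and 9 features. In sitter 2573 features were called after centring, 2648 with that background fitted by itself, and 22 to 5023 with 1 array left out. In the difference 15 were called after centring, 1 after centring and scaling, 17 as single spots and 0 by limma at the lower Cy5 gain, where 1313 had an unadjusted p under 0.05. After centring and scaling 1 of the 6 genes (CG4839) was called in Rover in place of 2 (Pde1c and Pde6). In sitter 1 of the 6 was called in place of 0 under some settings, and not always the same gene. After centring and scaling it was CngB, positive at 0.49 (limma adjusted p = 0.0245). With array weights, in print lot B and at the lower Cy5 gain it was Pde1c, negative at -0.49, -0.67 and -0.61. With 1 array left out 0 to 1 of the 6 were called. Of the pathway lists 10 genes were called in Rover after centring in place of 16, and 3 in sitter in place of 6.

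These values changed sign. In Rover CngB was 0.21 centred and 0.16 centred and scaled, and Pde11 0.0026 centred and scaled. In sitter CG4839 was 0.067 centred and 0.068 scaled, and Pde6 0.10 and 0.12. Over both backgrounds CG4839 was -0.028 in print lot B, -0.0097 at the lower Cy5 gain and -0.022 to 0.026 with 1 array left out, CngB -0.070 to 0.081 with 1 array left out, and Pde6 0.013 scaled. In the difference Nos was 0.0034 scaled and -0.45 to 0.0086 with 1 array left out, Pde11 was 0.035 centred and 0.046 scaled, and the first Nos pair was 0.15 centred. Centred and with 1 array left out, Nos ran from -0.29 to 0.13 in Rover, -0.15 to 0.073 in sitter, -0.18 to 0.032 over both and -0.23 to 0.19 in the difference. Pde11 ran likewise from -0.12 to 0.031, -0.17 to 0.11, -0.10 to 0.038 and -0.14 to 0.14. CG4839 ran from -0.0037 to 0.12 in sitter, and Pde6 from -0.021 to 0.012 over both.

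With the replicate number as a block 7 features were called in the difference in place of 9, 0 of them among the 6 genes. Pde6 was then at -0.43 (limma adjusted p = 0.371), and Pde11 with the replicate block and centring at 0.035. Not every array correlated best with its own number.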
